A study of Mus musculus with 6 samples.

Results

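Acute phase proteins are secreted in quantity during infection and injury, classically by the liver and also by activated macrophages and glia. The 10 genes described here were grouped under that heading, and secretion of their products was not measured. They include the serum amyloid A apolipoproteins Saa1, Saa2 and Saa3, the siderophore-binding lipocalin Lcn2 and the haemoglobin-binding protein haptoglobin (Hp). The others are the copper-carrying ferroxidase ceruloplasmin (Cp), the inhibitor of leukocyte elastase Slpi, the long pentraxin Ptx3, and the serine protease inhibitors Serpina3g and Serpina3n. The 10 genes were listed by name, with earlier results of these data known. Each was measured on the array row whose annotation gave that gene and no other. Of the 10 genes, 8 had such a row, each gene exactly 1, among 22180 genes with a row of their own and 41345 rows in all. Saa1 was represented by a row annotated to both Saa1 and Saa2, which is given by itself, and the expression of Serpina3g was not analysed here.

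The cells were BV-2, an immortalised line of mouse microglia, the macrophages of the brain, which the labels describe as transformed by a raf and myc retrovirus. The groups were 3 arrays of control (resting) cells and 3 arrays of cells given lipopolysaccharide (LPS) of Escherichia coli O111:B4, an outer membrane component of bacteria, at 1 µg/mL for 24 h. All 6 arrays come from the same line in the same reduced-serum medium, a transformed line grown without other brain cells. The sources used here do not give the sampling time of the control cells or whether replicates were separate cultures. P-values therefore set a difference only against the spread among these arrays, and that spread may be technical. As RNA was equalised before labelling, a change in the number of cells that express a gene and a change in RNA per cell cannot be told apart.

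Lipopolysaccharide is sensed through Toll-like receptor 4, which activates NF-kappaB and leads to secretion of interleukin 1, tumour necrosis factor and interleukin 6. These cytokines, through NF-kappaB, the C/EBP factors and STAT3, are the textbook inducers of acute phase genes in the liver. In the infected or injured brain, Lcn2 and Serpina3n are commonly used as markers of reactive glia.

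Values are log2 expression levels as deposited, and differences are LPS minus control on that scale, with a moderated standard error (SE) from limma. A row was called where its limma p was under 0.05 after Benjamini-Hochberg adjustment for the 41345 rows tested. As a guide to background, the 95th percentile of 1438 rows for olfactory, vomeronasal and taste receptors was 3.21. Of 12 microglia and macrophage markers 10 were above this level on all 6 arrays, among them Itgam, Csf1r and Ptprc. The homeostatic microglia marker Tmem119 was above it on none. P2ry12 was above it on 4 arrays, with LPS values wholly below the controls (difference -0.77, limma adjusted p = 0.65). In Ptprc and Adgre1 the LPS values lay wholly above the controls, and none of the 12 was called. The mean level of the 12 ran from 7.10 to 7.42 in control arrays and from 7.14 to 7.60 in LPS arrays. The defining markers of other acute phase sources were not above background on any array for 7 of 8 astrocyte genes (Gfap and Aqp4 among them), 6 of 7 hepatocyte genes with a row (Alb among them) and 8 of 9 neutrophil genes (S100a8 and Ly6g among them). The exception among the astrocyte genes, Aldoc, was above it on all 6 arrays, as were Kdr and Vwf of 6 endothelial markers. Over all rows, control replicate 2 had an r of 0.960 and 0.959 with the other controls, which had 0.982 with each other, and an r of 0.968 with LPS replicate 3.

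The acute phase genes divided into 5 that were above background and had every LPS array above every control, and 4 rows that stayed at background on all 6 arrays. Saa3, Lcn2 and Slpi rose, by 63.4-fold, 62.0-fold and 10.9-fold. Hp and Cp stood at 16.3-fold and 8.94-fold the control mean on LPS replicates 1 and 2. On LPS replicate 3 they stood at 2.40-fold and 1.57-fold, and neither passed. Saa2, the row shared by Saa1 and Saa2, Ptx3 and Serpina3n were below the background level in control and LPS cells alike. Thus 3 of 8 genes were called higher, where 80 of 41345 rows (0.193%) were, and 0 of 8 were called lower, where 0 of 41345 rows (0%) were. At an unadjusted limma p under 0.05, 5 of the 8 genes were higher and 0 were lower, against 2059 and 578 of all rows. All LPS values lay above all control values for 5 of the 8 genes and for 7.74% of all rows. The median difference over the 8 genes was 2.72, against 0.03 over all rows, and it lies between the values of Cp and Hp. Because the genes were chosen with earlier results of these data known, the comparisons with all rows are descriptions and not tests.

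**Figure D1:**
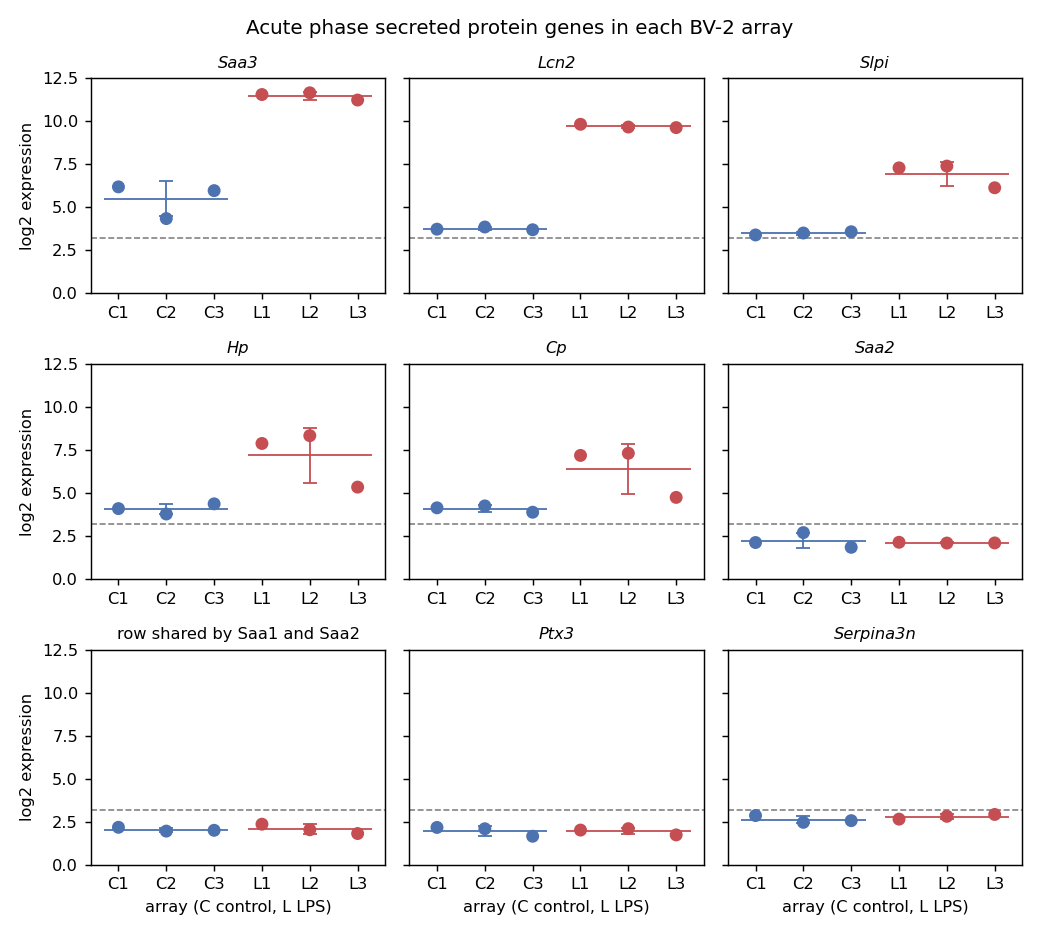
Log2 expression of 8 acute phase genes and of the row shared by Saa1 and Saa2 on each control (C1 to C3, blue) and LPS (L1 to L3, red) array. Lines and bars give the mean and SD of 3 arrays, and the dashed line is the background level of 3.21. In Saa3, Lcn2, Slpi, Hp and Cp every LPS point is above every control point, with L3 the lowest LPS point in each, and the other 4 rows lie under the dashed line.

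The promoters of Saa3, Lcn2, Slpi and Cp, in which every LPS value lay above every control value, are shown because they are where the inflammatory transcription factors named above can act, with Saa2 and Ptx3 for contrast as genes at background. Each window runs from 250 bases before to 50 after the transcription start in RefSeq (GRCm38.p6), 5′ to 3′ on the gene's strand. Windows of 9 of the 10 genes were used, 10 windows in all, since Cp had 2, and the promoter of Hp was not analysed here. Capitals mark matches on either strand to the C/EBP motif TTGCNNAA or to the NF-kappaB consensus decamer. Saa3 lies at chr7:46715627-46715926 (minus strand), Lcn2 at chr2:32387690-32387989 (minus strand), Slpi at chr2:164356458-164356757 (minus strand), the second Cp window at chr3:19956999-19957298 (plus strand), Saa2 at chr7:46751583-46751882 (plus strand) and Ptx3 at chr3:66219637-66219936 (plus strand).
Saa3: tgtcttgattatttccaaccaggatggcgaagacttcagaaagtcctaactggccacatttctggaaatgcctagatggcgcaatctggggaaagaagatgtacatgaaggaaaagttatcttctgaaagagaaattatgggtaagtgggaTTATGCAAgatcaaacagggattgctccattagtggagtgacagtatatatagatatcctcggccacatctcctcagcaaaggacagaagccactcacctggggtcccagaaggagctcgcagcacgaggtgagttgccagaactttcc
Lcn2: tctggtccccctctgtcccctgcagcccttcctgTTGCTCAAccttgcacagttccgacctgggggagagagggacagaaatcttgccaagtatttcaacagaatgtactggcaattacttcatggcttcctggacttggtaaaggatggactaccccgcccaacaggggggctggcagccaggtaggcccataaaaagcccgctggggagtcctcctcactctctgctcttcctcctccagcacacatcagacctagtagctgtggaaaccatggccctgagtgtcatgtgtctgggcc
Slpi: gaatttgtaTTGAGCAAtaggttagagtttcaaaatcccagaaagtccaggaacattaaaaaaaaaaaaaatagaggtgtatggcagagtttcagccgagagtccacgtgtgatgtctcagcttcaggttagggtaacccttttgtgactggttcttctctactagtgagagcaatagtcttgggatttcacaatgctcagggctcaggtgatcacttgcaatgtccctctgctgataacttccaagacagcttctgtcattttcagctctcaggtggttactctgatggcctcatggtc
Cp: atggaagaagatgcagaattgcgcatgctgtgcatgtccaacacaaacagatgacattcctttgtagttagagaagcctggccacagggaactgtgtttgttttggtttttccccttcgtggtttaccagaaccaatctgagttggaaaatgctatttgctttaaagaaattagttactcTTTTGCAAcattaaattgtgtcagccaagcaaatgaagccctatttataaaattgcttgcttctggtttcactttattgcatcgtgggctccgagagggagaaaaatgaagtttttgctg
Saa2: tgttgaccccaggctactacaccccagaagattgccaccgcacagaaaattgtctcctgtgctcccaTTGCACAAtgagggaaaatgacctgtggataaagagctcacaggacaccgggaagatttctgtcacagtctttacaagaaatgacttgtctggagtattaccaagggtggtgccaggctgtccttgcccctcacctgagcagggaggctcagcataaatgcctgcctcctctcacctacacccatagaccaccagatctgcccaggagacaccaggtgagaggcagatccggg
Ptx3: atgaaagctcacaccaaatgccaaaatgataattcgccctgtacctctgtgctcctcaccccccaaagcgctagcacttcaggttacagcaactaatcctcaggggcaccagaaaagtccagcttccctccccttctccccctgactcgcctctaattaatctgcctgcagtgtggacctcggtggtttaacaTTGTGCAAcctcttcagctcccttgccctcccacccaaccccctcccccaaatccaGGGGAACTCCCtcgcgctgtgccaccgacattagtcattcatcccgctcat

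The C/EBP motif was found in 7 of the 10 windows, and in 10.8% of the 32851 windows of the whole RefSeq table. The 10 windows are not independent, since those of Saa1 and Saa2 are nearly the same in sequence and the 2 Cp windows overlap. It lay from 99 to 92 bases before the start in Saa3, from 70 to 63 in Cp, from 216 to 209 in Lcn2 and from 241 to 234 in Slpi. It was also in the windows of Saa1, Saa2 and Ptx3, so it was present both in genes with all LPS values above the controls and in genes at background. Every window printed above holds it. It was absent from the first Cp window and from those of Serpina3g and of Serpina3n, a gene at background, and these windows are not printed. The NF-kappaB decamer was in 2 of the 10 windows, those of Ptx3 and Serpina3g, and in 8.46% of all windows. In Ptx3 overlapping matches span the transcription start. The STAT motif TTCNNNGAA was in 1 of the 10 windows, that of Serpina3g, and in 8.30% of all windows. A match describes the letters and is not a measured binding site.

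Saa3 is the serum amyloid A of macrophages and other cells outside the liver. It had 6.19, 4.35 and 5.97 on control replicates 1 to 3 and 11.56, 11.66 and 11.24 on LPS replicates 1 to 3. The LPS arrays were close together, the control arrays were not, control replicate 2 being lowest (-1.74 from the mean of the other controls), and 5.05 separated the highest control from the lowest LPS value. The means were 5.50 ± 1.01 and 11.49 ± 0.22 (SD, n = 3), a difference of 5.99 (SE 0.47, limma adjusted p = 0.011), with a 95% interval from 4.86 to 7.12. This difference ranked 3 among the 22180 genes. Without control replicate 2 the difference was 5.41, and the call was lost without control replicate 3 (limma adjusted p = 0.060), LPS replicate 1 (0.080) or LPS replicate 2 (0.10), in a range of adjusted p from 0.0013 to 0.14 over the alternatives.

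The serum amyloid genes of the liver stayed at background. Saa2 had 2.12, 2.70 and 1.85 in controls and 2.14, 2.09 and 2.10 after LPS. The groups overlapped, and the difference was -0.11 (SE 0.23, limma adjusted p = 1.00), with a 95% interval from -0.66 to 0.43. The row annotated to both Saa1 and Saa2 had 2.18, 1.96 and 2.01 in controls and 2.36, 2.04 and 1.82 after LPS, a difference of 0.02 with an interval from -0.40 to 0.45. Values below the background level bound a gene only loosely, so a change at very low expression was not detectable. Saa4, the constitutive serum amyloid A, was likewise not above background on any array.

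Lcn2 binds bacterial siderophores and so withholds iron. It had 3.73, 3.86 and 3.70 in controls and 9.83, 9.67 and 9.64 after LPS. Both groups were tight, and the groups were 5.78 apart at their nearest. The means were 3.76 ± 0.08 and 9.71 ± 0.10 (SD, n = 3), a difference of 5.95 (SE 0.13, limma adjusted p = 6.0e-05), with a 95% interval from 5.63 to 6.27. The difference ranked 4 among the 22180 genes and was called under each of the 14 alternatives, with differences from 5.86 to 6.04. Control levels of Lcn2 and Slpi were close to the background level, where a fold change may understate the true ratio.

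Slpi protects tissue from neutrophil elastase and dampens macrophage responses to LPS. It had 3.39, 3.51 and 3.58 in controls and 7.30, 7.40 and 6.14 after LPS. LPS replicate 3 was the lowest LPS array but still 2.56 above the highest control. The means were 3.49 ± 0.09 and 6.95 ± 0.70 (SD, n = 3), a difference of 3.45 (SE 0.34, limma adjusted p = 0.025) with an interval from 2.65 to 4.25. It was 3.86 without LPS replicate 3 (limma adjusted p = 0.0040), and leaving out any other array ended the call (adjusted p from 0.060 to 0.17), while over the 14 alternatives adjusted p ran from 0.0032 to 0.19.

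Hp captures free haemoglobin. It had 4.10, 3.78 and 4.37 in controls and 7.89, 8.34 and 5.35 after LPS. LPS replicates 1 and 2 were far above the controls and LPS replicate 3 only 0.97 above the highest of them. The means were 4.09 ± 0.30 and 7.19 ± 1.61 (SD, n = 3), a difference of 3.11 (SE 0.74, limma adjusted p = 0.35, with an interval from 1.34 to 4.87). Relative to the control mean, LPS replicates 1 and 2 stood at 16.3-fold and LPS replicate 3 at 2.40-fold. Without LPS replicate 3 the difference was 4.03 and was called (limma adjusted p = 0.010), and without any other single array it was between 2.53 and 3.25 and was not.

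Cp oxidises ferrous iron so that it can be loaded onto transferrin, and works with the exporter ferroportin. It had 4.14, 4.25 and 3.89 in controls and 7.19, 7.32 and 4.75 after LPS. The pattern was that of Hp, with LPS replicate 3 only 0.49 above the highest control. The means were 4.09 ± 0.19 and 6.42 ± 1.45 (SD, n = 3), a difference of 2.32 (SE 0.66, limma adjusted p = 0.48, with an interval from 0.75 to 3.90). LPS replicates 1 and 2 stood at 8.94-fold and LPS replicate 3 at 1.57-fold the control mean. Without LPS replicate 3 the difference was 3.16 and was called (limma adjusted p = 0.0077).

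**Figure D2:**
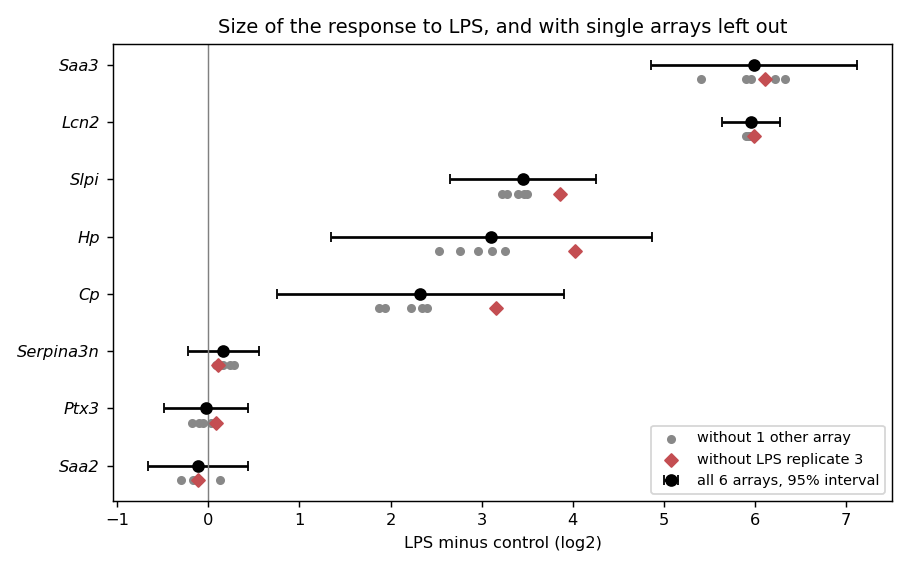
Difference between LPS and control in log2 units for each of the 8 acute phase genes with a row of their own. Black points and bars are the limma estimates from all 6 arrays with 95% intervals, grey points leave out 1 array other than LPS replicate 3, and red diamonds leave out LPS replicate 3. Without LPS replicate 3 Hp moves from 3.11 to 4.03 and Cp from 2.32 to 3.16, while Lcn2 stays between 5.90 and 6.002 in these fits.

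Ptx3, a soluble pattern recognition protein of macrophages, had 2.17, 2.10 and 1.66 in controls and 2.02, 2.10 and 1.74 after LPS. The groups overlapped, and the difference was -0.02 (SE 0.19, limma adjusted p = 1.00) with an interval from -0.48 to 0.43. Serpina3n, which inhibits granzyme B and leukocyte elastase, had 2.86, 2.47 and 2.57 in controls and 2.66, 2.82 and 2.93 after LPS. These groups also overlapped, and the difference was 0.17 (SE 0.16, limma adjusted p = 1.00) with an interval from -0.22 to 0.56. Neither gene was above the background level on any array.

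The 5 genes whose LPS values lay wholly above the controls, 3 of them called, differed in how far LPS replicate 3 followed the other LPS arrays. LPS replicate 3 less the mean of LPS replicates 1 and 2 was -0.11 in Lcn2, -0.37 in Saa3, -1.21 in Slpi, -2.51 in Cp and -2.77 in Hp. Over all 22180 genes the median of this quantity was 0.00070, and 3 genes (Nr4a1, Fos and 4930438A08Rik) had a lower value than Hp and 7 a lower value than Cp. A set of 48 genes, defined after the data were seen, had both LPS replicates 1 and 2 at least 2 log2 units above every control, whatever LPS replicate 3 showed. In these LPS replicate 3 was below both other LPS arrays for 19 genes, above both for 25 and between them for 4, with a median of 0.12, so it was not lower in general. Hp, Cp and Slpi ranked 2, 4 and 5 from the lowest of the 48. What sets LPS replicate 3 apart in these genes was not tested.

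**Figure D3:**
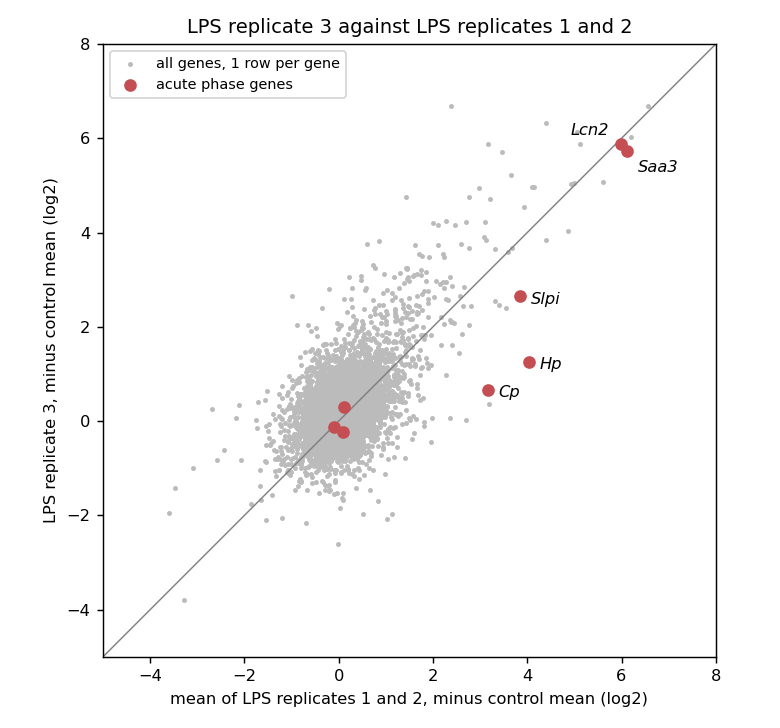
Each point is a gene (1 row per gene, 22180 genes). The horizontal axis gives the mean of LPS replicates 1 and 2 less the control mean and the vertical axis LPS replicate 3 less the control mean, both in log2 units, with the line of equal values. Saa3 and Lcn2 lie near the line, at 6.11 against 5.74 and 5.99 against 5.88, and Slpi (3.86 against 2.65), Hp (4.03 against 1.26) and Cp (3.16 against 0.65) lie below it.

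Among genes outside the list, likeness was measured as the root mean square difference over the 6 arrays after subtracting each gene's own control mean. The nearest to Saa3 were Il1a (0.37), Il1b (0.44) and the itaconate-producing enzyme Acod1 (0.53), and the nearest to Lcn2 were Il1a (0.34), the antiviral enzyme Rsad2 (0.53) and Acod1 (0.61). Saa3 and Lcn2 were 0.64 apart from each other. The same measure for the other members was added after the data were seen. Nearest to Hp was the inducible nitric oxide synthase Nos2 (0.59), which had 8.52, 8.62 and 7.42 after LPS. Close behind was 4930438A08Rik (0.63), which had 6.74, 6.81 and 3.96 after LPS. LPS replicate 3 less the mean of LPS replicates 1 and 2 was -1.15 in Nos2 and -2.82 in 4930438A08Rik. Nearest to Slpi were Zfp811 (0.37), Nos2 (0.43) and Clec4a1 (0.46). Nearest to Cp were the uncharacterised gene 4930438A08Rik (0.28) and the monocyte chemoattractant Ccl7 (0.57), which had 7.23, 7.55 and 4.71 after LPS and 5.01, 4.01 and 5.04 in controls. Hp was 0.60 from Slpi and 0.63 from Cp, and 2.24 from Saa3.

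Of 20 measured inducers and transcription regulators of the acute phase response 4 rose, 0 fell and 16 did not pass. Over all 41345 rows, 80 (0.193%) were called higher and 0 lower. The 4 were the cytokines Il1a (6.15, SE 0.24, limma adjusted p = 0.00098), Il1b (5.43, SE 0.39, adjusted p = 0.0073), Il6 (5.01, SE 0.20, adjusted p = 0.00098) and Tnf (2.71, SE 0.32, adjusted p = 0.044). All LPS values lay above all control values for 8 of the 20 genes and for 7.74% of all rows. At an unadjusted limma p under 0.05, 8 of the 20 were higher and 1 was lower, against 2059 and 578 of all 41345 rows. The others are given by role and were picked after their values were seen. Nfkbiz, the nuclear cofactor of NF-kappaB needed for Lcn2 induction, had 5.66, 4.62 and 5.82 in controls and 7.86, 7.96 and 6.82 after LPS (difference 2.18, SE 0.42, limma adjusted p = 0.23). The groups did not overlap, and LPS replicate 3 was again the lowest LPS array. Cebpb had a difference of 1.17 (limma adjusted p = 0.60), Socs3, a feedback inhibitor of STAT3 signalling, of 1.00 (adjusted p = 0.14) and Stat3 of 0.67 (adjusted p = 0.85). The interleukin 6 receptor Il6ra had 6.70, 6.72 and 6.93 in controls and 4.88, 5.16 and 6.80 after LPS, so that LPS replicate 3 alone lay within the range of the controls (difference -1.17, limma adjusted p = 0.76). The median difference of the 20 genes was 0.44.

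Other secreted acute phase proteins showed no call in either direction among 26 measured genes, and 21 of these were not above background on any array, including the pentraxins Crp and Apcs and the fibrinogen chains Fga, Fgb and Fgg. At an unadjusted limma p under 0.05, 2 were higher and 0 lower, against 2059 and 578 of all 41345 rows. Those named by the rule were the interleukin 1 receptor antagonist Il1rn, with 5.92, 5.18 and 5.82 in controls and 6.85, 7.05 and 6.995 after LPS (difference 1.33, SE 0.22, limma adjusted p = 0.14), and complement factor B (Cfb), with 3.40, 3.10 and 3.47 in controls and 5.99, 6.60 and 8.28 after LPS (difference 3.63, SE 0.55, adjusted p = 0.11). Only these 2 of the 26 genes had LPS values wholly above the controls, a share close to that of all rows (7.74%). In 1 gene they lay wholly below, as in 1439 of all 41345 rows. In Cfb LPS replicate 3 was the highest array, the opposite of Hp and Cp. The median difference was 0.05.

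Paralogs and relatives of the 10 genes showed no call among 17 measured genes, and the median difference was 0.08. At an unadjusted limma p under 0.05, 1 was higher and 0 were lower, against 2059 and 578 of all 41345 rows. The 4 measured Serpina3 paralogs, Serpina3a, Serpina3b, Serpina3i and Serpina3j, were not above background on any array. Named by the rule were the Slpi-like WAP protein gene Wfdc17, with a difference of 0.98 (SE 0.27, limma adjusted p = 0.47) and no overlap between groups, and the lipocalin Lcn12, with 0.17 (SE 0.23, adjusted p = 1.00).

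Of 20 measured receptors, ligands and target proteases, 1 rose, 0 fell and 19 did not pass, with a median of -0.07. The 1 was Tlr2, a receptor for bacterial lipoproteins that also senses serum amyloid A (difference 1.36, SE 0.16, limma adjusted p = 0.042). Over all 41345 rows, 80 (0.193%) were called higher and 0 lower. At an unadjusted limma p under 0.05, 3 of the 20 were higher and 2 were lower, against 2059 and 578 of all 41345 rows. The 2 lower were the complement subunits C1qa (difference -0.57, limma adjusted p = 0.66) and C1qc (-1.18, adjusted p = 0.50). They bind Ptx3 and were singled out after their values were seen. In 3 genes, Tlr2, Hmox1 and Slc40a1, all LPS values lay above all control values, against 3199 of all 41345 rows. In 3 others, C1qa, C1qc and Cd163, they all lay below, against 1439 of all rows. The remaining subunit C1qb, also picked after its values were seen, overlapped between the groups (difference -0.37, SE 0.33). A further 5 were named for their roles after their values were seen. The Lcn2 receptor Slc22a17 had a difference of -0.21 (limma adjusted p = 1.00). The haptoglobin-haemoglobin receptor Cd163 was not above background on any array, nor were the Slpi and serpin targets Elane and Ctsg. Ferroportin (Slc40a1), the iron exporter that works with Cp, had 5.32, 5.28 and 5.39 in controls and 5.66, 6.13 and 6.96 after LPS (difference 0.92, SE 0.32, limma adjusted p = 0.65), with LPS replicate 3 highest where Cp had it lowest.

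**Figure D4:**
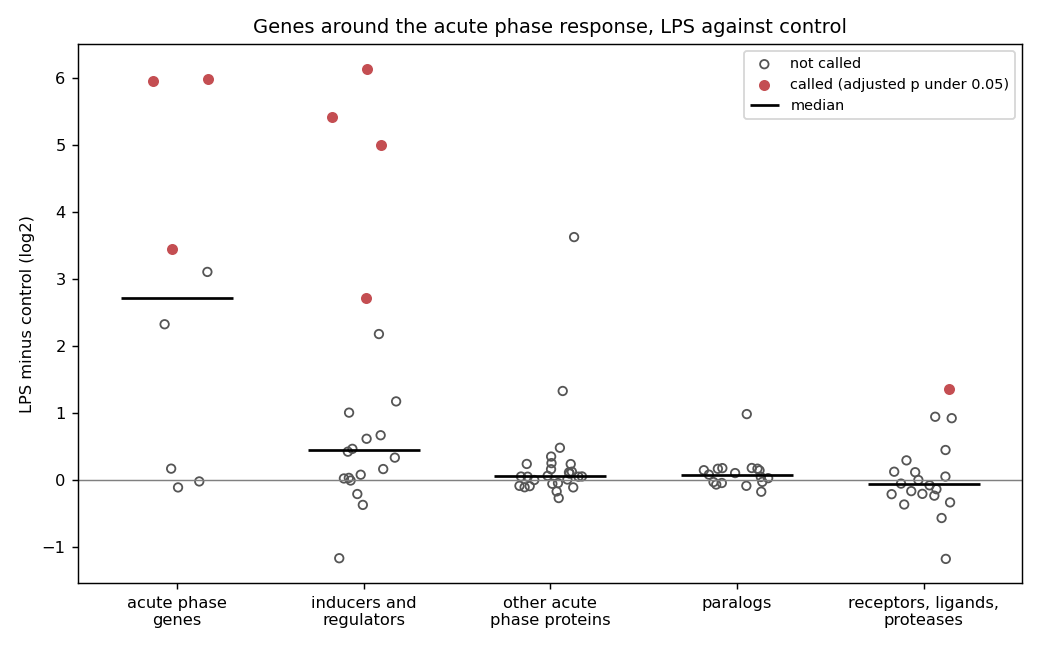
Difference between LPS and control in log2 units for the 8 measured acute phase genes and for the genes of 4 related lists. Filled red points were called at a limma adjusted p under 0.05, open points were not, and bars are medians, which run from -0.07 for receptors, ligands and proteases to 2.72 for the acute phase genes.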

How the data were processed

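Total RNA of 6 BV-2 samples (3 control, 3 LPS) was labelled with the GeneChip WT PLUS kit and hybridised to Affymetrix whole-transcript arrays, per the labels. The deposited values are log2 expression per transcript cluster, which the authors made in Expression Console (Affymetrix), per the submitters' processing notes. Its version, background correction and normalization are not given in the sources used here, and the log2 scale was read from the values.

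Rows were named from the platform annotation, with 23521 rows of 1 symbol, 1814 of several and 16010 of none. Of the named rows 23328 matched RefSeq (GRCm38.p6) by gene identifier, with no symbol changed. Because RefSeq lists Saa1 and Saa2 as synonyms of each other, the identifier decided between them. Where a gene had several rows the row with the highest mean was used.

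The fit used lmFit and eBayes without a trend (limma 3.58.1, R 4.3.3) on all rows, with no added normalization or filter, and the fit was tested on simulated data. The members and gene lists were chosen with earlier results of these data known. Named beyond the 10 genes were up to 4 called genes of each list, or the 2 with the highest mean where none was called, and the 3 genes nearest to each of the 2 called members with the largest rise. Alternatives were quantile normalization, median centring, leaving out rows not above background on 3 arrays, an intensity trend with robust estimation, array weights, 1 row per gene, a replicate block, leaving out each array, and leaving out control replicate 2 and LPS replicate 3 together. The number of arrays limits the precision.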

Additional observations from a re-analysis of the deposited data

How the results depend on the processing

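Of the 8 genes, 3 were called higher after quantile normalization, median centring, an intensity trend, array weights, 1 row per gene or leaving out dim rows (which kept 5 of the 8), and the 3 were Saa3, Lcn2 and Slpi each time. With 1 array left out the number ran from 1 to 5, and Lcn2 was called in all 6 of these fits. The 5 called without LPS replicate 3 were Saa3, Lcn2, Slpi, Hp and Cp, and the same 5 were called without control replicate 2 and LPS replicate 3 together. Genes called lower numbered 0 in every fit. The median difference of the genes ran from 2.20 to 3.55 over the alternatives.

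Of all rows, 80 were called higher and 0 lower. With single arrays left out the calls ran from 15 to 76 higher and from 0 to 14 lower. Array weights gave 132 higher, and leaving out control replicate 2 and LPS replicate 3 gave 152 higher and 67 lower. The cause was not tested.

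With the replicate number as a block, 1 of the 8 genes was called, Lcn2, and 7 of all rows were called higher. Deviations of same-numbered arrays had correlations of 0.07, -0.26 and -0.22 over rows, so the numbers did not mark a pairing and the block was not used. Between arrays of different number the correlations ran from -0.14 (control replicate 1 with LPS replicate 3) to 0.27 (control replicate 2 with LPS replicate 3). Whether arrays of different number share a source of variation was not tested. Each measured gene had 1 row, so averaging a gene's rows changed nothing.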

Other observations

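Of the 6 genes outside the list in which LPS replicate 3 lay further below LPS replicates 1 and 2 than it did in Cp, 4 have not yet been described, and they were picked after their values were seen. The immediate early genes Nr4a1 and Fos were among them. Nr4a1 had 7.01, 7.23 and 4.03 on LPS replicates 1 to 3 and Fos had 7.50, 7.64 and 4.49. On control replicate 2 these were also low, at 4.25 for Nr4a1 and 5.27 for Fos, against 7.11 and 6.96 for Nr4a1 and 7.12 and 6.96 for Fos on control replicates 1 and 3. The glucose transporter Slc2a3 had 7.15, 3.72 and 7.30 in controls and 5.90, 6.20 and 3.44 after LPS, and the chemokine Cxcl14 had 6.59, 4.44 and 6.74 in controls and 6.60, 6.92 and 4.24 after LPS. In these 4 genes control replicate 2 and LPS replicate 3 were the lowest arrays of their groups, as they were for Saa3 and Hp. A low LPS replicate 3 was how the 4 were picked. Over the 10602 genes above background on 3 or more arrays, control replicate 2 had a median of -0.37 from the mean of the other controls. LPS replicate 3 had a median of 0.08 from the mean of LPS replicates 1 and 2. In Cp, by contrast, control replicate 2 was the highest control, and in Lcn2 too.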
